A study of Rattus norvegicus with 12 samples.

Results

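Lcp1 and 6 other genes that are typical of white blood cells as a class were followed in aging rat cortex. Lcp1 encodes L-plastin, an actin-bundling protein of leukocytes. The other members were Ptprc, Cd53, Laptm5, Itgb2, Ly86 and Coro1a, and all probe sets that the platform annotation pairs with one of these symbols were taken, 9 probe sets for 7 genes, out of 31099 probe sets and 14218 genes with a symbol. The set was chosen by its author around Lcp1, and Lcp1 was chosen for its difference between the age groups in these same arrays, so that its place among the genes called with age was settled by the choice. The age differences of the members are therefore given as a description, without a test.

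RNA came from the parietal cortex of 12 male Fischer 344 (F344) rats, 6 young and 6 aged, with 1 Affymetrix RAE230 2.0 array per rat. F344 is an inbred strain much used in aging research. The labels give ages of 3 to 5 months for young and 21 to 23 months for aged rats, and the sample titles name parietal cortex while the tissue field names frontal cortex. The labels name no transgene and no drug, and rats of both ages had been implanted with a telemetry emitter for EEG and EMG and trained in the water maze before tissue was taken. The comparison asked how cortical expression differs with age. The RNA was taken from whole tissue, so more cells of a type cannot be told apart from more RNA per cell.

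Leukocytes share a set of proteins that other cell families largely lack. Some organize the actin cortex for crawling and engulfment, some sit in the plasma membrane and set the threshold of signaling or adhesion, and some act in the lysosome or on pathogen receptors. In healthy cortex the main leukocyte is the microglial cell, the resident macrophage of brain tissue, with smaller numbers of macrophages at the borders and of cells inside blood vessels. Neuronal markers had high signals in these samples. Slc17a7, for example, which loads glutamate into synaptic vesicles, was at 4379 to 4774 in young and 3893 to 4962 in aged rats. None of 8 neuronal and 5 cortical excitatory neuron markers tested passed the limma test with age at an adjusted p of 0.05, and 1 (Syn1) had an unadjusted p up to 0.05.

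Of the 7 members, 6 had a higher mean log2 signal in aged rats and 1, Coro1a, a lower one. Their median difference was 0.24 on the log2 scale, beside 0.024 over all 13253 genes tested, of which 56.9% were higher in aged rats. Only Lcp1 had all 6 aged rats above all 6 young rats, a pattern found for 71 genes (0.536%), while the reverse, found for 32 genes (0.241%), held for no member. At an adjusted p under 0.05 in limma, 6 of all genes were higher in aged rats (0.0453%) and 1 lower (0.00755%), and 1 member, Lcp1, was among the former. Before adjustment, p was at most 0.05 for 860 genes with higher signal in aged rats (6.49%) and for 347 with lower signal (2.62%), and the members counted there were Lcp1, Itgb2 and Laptm5 on the higher side and Coro1a on the lower. Because the choice of members used this contrast, the call of Lcp1 is no test of it, and nothing is read from these counts. The share of higher genes among all those at an unadjusted p up to 0.05 depended on the scaling, at 71.3% as deposited, 55.6% after quantile normalization and 31.9% after median centring. Each member had the same sign under these 3 scalings.

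**Figure D1:**
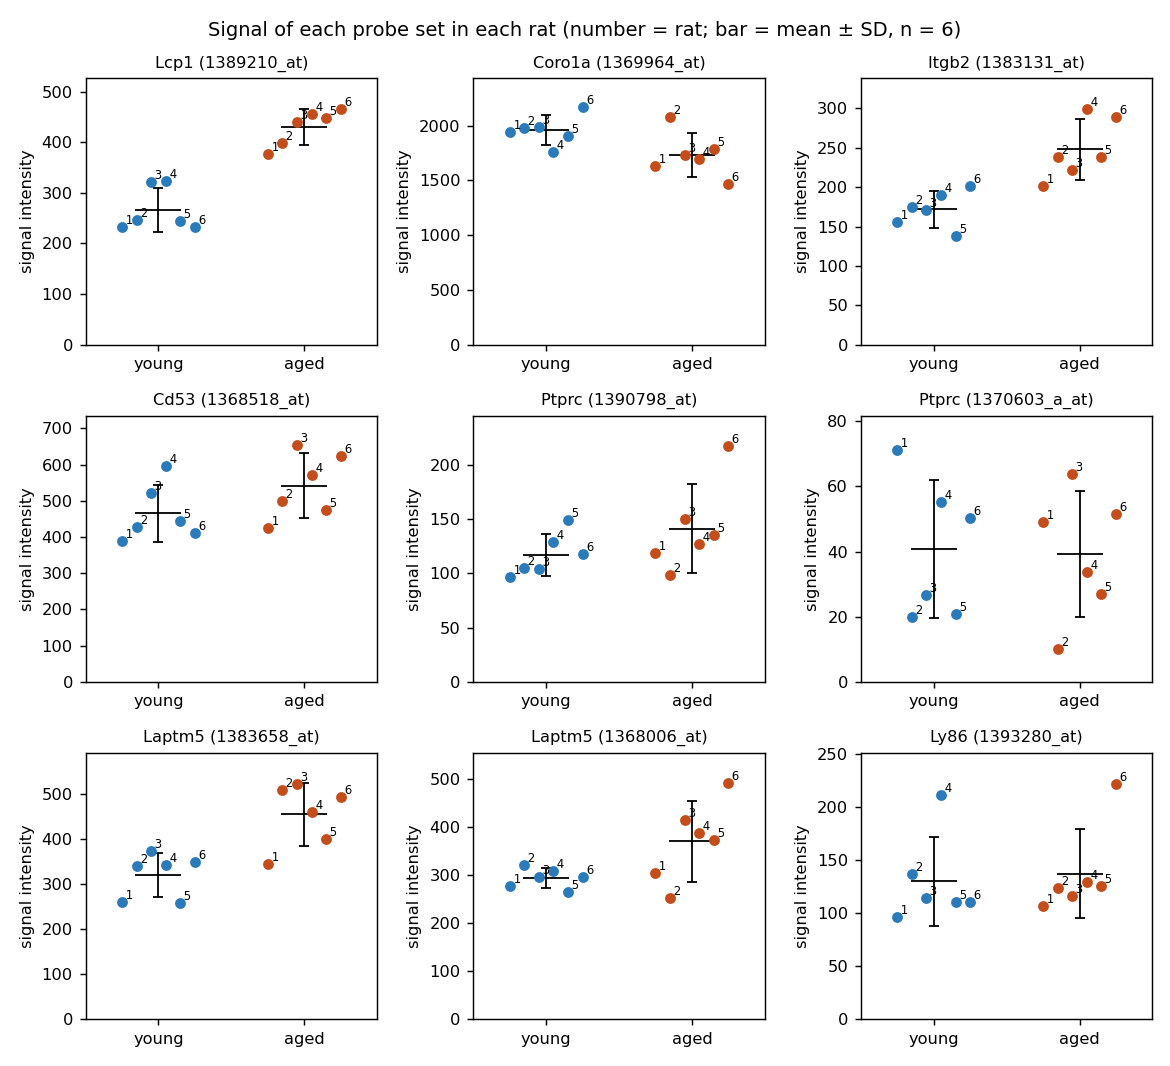
Signal intensity (linear scale, each axis from 0) of the 9 probe sets of the 7 genes in each rat. Points are single rats with their number within the age group, and bars are the mean and SD of 6 rats. The Lcp1 points of aged rats (376 to 465) lie above those of all young rats (232 to 324), and the groups overlap for the 8 other probe sets.

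Lcp1 (probe set 1389210_at) is described first. In young rats 1 to 6 its signal was 232, 246, 320.5, 324, 244 and 233. In aged rats 1 to 6 it was 376, 398, 440.5, 456, 448 and 465. Young rats 3 and 4 stood above the other 4 young rats, and the lowest aged rat stood above both. Young rats had a mean signal of 266 ± 43.6 and aged rats one of 430.5 ± 35.5 (SD, n = 6 each). This is a difference of 0.70 on the log2 scale (SE 0.10), or 1.63-fold, and the spread relative to the mean was 16.4% in young and 8.24% in aged rats. The difference was positive under all 27 alternative settings tried, from 0.63 to 0.79, and the call that led to its choice held in 5 of them and not in the other 22.

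Coro1a (1369964_at) encodes coronin 1A, which binds filamentous actin and the Arp2/3 complex and is known from leukocytes and also from neurons. Its signal ran from 1758 to 2176 (median 1965) in young and from 1464 to 2081 (median 1716) in aged rats. Of the aged rats, 4 lay below every young rat, while aged rat 2 lay near the top of the young range at 2081. The means were 1960 ± 136 and 1733 ± 204 (SD, n = 6 each), a log2 difference of -0.18 (SE 0.082). Coro1a thus went the opposite way from Lcp1, the other actin-binding member.

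The other plastins and coronins were listed as relatives of Lcp1 and Coro1a. None of 8 such relatives passed the test at an adjusted p of 0.05 in limma, 3 had an unadjusted p up to 0.05, and 6 were higher and 2 lower in aged rats. Their median log2 difference was 0.16. Pls3, the T-plastin of solid tissues, had signals of 2437 to 2931 in young and 2624 to 3901 in aged rats, with a log2 difference of 0.26 (SE 0.090, limma adjusted p 0.423). Coro6 and Coro7 had log2 differences of 0.33 and 0.17 (SE 0.14 and 0.075), and the age groups overlapped for both.

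A wider list of leukocyte actin and Rac regulators held 15 tested genes of 19. All 15 were higher in aged rats on the deposited scale, 13 after quantile normalization and 12 after median centring. The lowest log2 difference on the deposited scale, that of Rac2, was 0.00059. The median was 0.17 on that scale, 0.105 after quantile normalization and 0.104 after median centring. None passed at an adjusted p of 0.05 in limma, and 3 had an unadjusted p up to 0.05. These were Capg, an actin filament capping protein, with a log2 difference of 0.59 (SE 0.21, limma adjusted p 0.443), Vav1, an exchange factor for Rac in blood cells, with 0.59 (SE 0.22, limma adjusted p 0.457), and Arhgdib, with 0.25 (SE 0.11, limma adjusted p 0.512). The median signal of Capg was 99.0 in young and 141 in aged rats, and its groups overlapped.

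Of the surface proteins, Itgb2 differed most between the age groups. Itgb2 (1383131_at) encodes CD18, the beta chain shared by the leukocyte integrins. Its signal was 137 to 201.2 in young and 201.0 to 299 in aged rats, so that 5 of 6 aged rats exceeded every young rat and aged rat 1 fell level with young rat 6. The means were 172 ± 23.0 and 248 ± 38.4 (SD, n = 6 each), a log2 difference of 0.53 (SE 0.12). Under the alternatives tried this value ran from 0.46 to 0.59.

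The alpha chains that pair with CD18 did not all lie on one side. Itgad, which encodes alpha D, had dim signals of 8.14 to 39.5 in young and 17.0 to 56.3 in aged rats (log2 difference 1.12, SE 0.44, limma adjusted p 0.486), while Itgal, the LFA-1 alpha chain, had 0.25 (SE 0.16). Jam2, a junctional adhesion molecule, had 0.11 (SE 0.067). Itgam, the alpha chain of Mac-1 and a common microglial marker, had -0.24 (SE 0.25), and its median signal was 122 for young and 90.9 for aged rats. Its value was picked out after it had been seen. Itgax lay below the cutoff on all 12 arrays. Over the 11 tested integrin partners and adhesion molecules, 8 had higher and 3 lower signal with age, at a median of 0.11. This median was 0.034 after quantile normalization and 0.039 after median centring, where 6 were higher, and 0.051 without aged rat 3, and none passed at an adjusted p of 0.05 in limma, with 1 at an unadjusted p up to 0.05.

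Ptprc encodes CD45, the receptor tyrosine phosphatase of nucleated blood cells. Its brighter probe set (1390798_at) gave signals of 96.6, 105, 104, 129, 149 and 118 in young rats 1 to 6. In aged rats 1 to 6 the values were 119, 98.9, 150.0, 127, 135 and 217. All aged rats but rat 6 lay within or close to the young range. The means were 117 ± 19.6 and 141 ± 41.0 (SD, n = 6 each), a log2 difference of 0.24 (SE 0.17), which was 0.11 without aged rat 6. The second probe set (1370603_a_at) was dim, at 19.9 to 71.3 in young and 10.1 to 63.9 in aged rats, with a log2 difference of -0.09 (SE 0.47). Deviations of both probe sets from the age means were only loosely related across the 12 rats (Pearson r 0.35, Spearman rho 0.24).

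CD45 acts on the Src-family kinases that start signaling from immune receptors. Of 14 tested genes of this signaling step, which include kinases, adaptors, the phosphatases Inpp5d and Ptpn6 and the phospholipase Plcg2, 11 had a higher and 3 a lower mean in aged rats, at a median difference of 0.21 (log2), or 0.099 after quantile normalization. None passed at an adjusted p of 0.05 in limma, while 5 higher and 1 lower had an unadjusted p up to 0.05, the lower one being Inpp5d at -0.21 (SE 0.078, limma adjusted p 0.466). Without aged rat 2 the median was 0.31. Blnk, an adaptor downstream of Syk, had signals of 205 to 306 in young and 302 to 519 in aged rats (log2 difference 0.54, SE 0.14, limma adjusted p 0.255). Skap2, an adaptor in myeloid integrin signaling, had its highest young rat at 347.3 and its lowest aged rat at 347.7, and so no overlap (0.34, SE 0.090, limma adjusted p 0.285). Csk, the kinase that opposes CD45 on Src-family kinases, had 0.27 (SE 0.10, limma adjusted p 0.457).

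Cd53 (1368518_at) encodes a tetraspanin, a protein that crosses the membrane repeatedly and organizes receptors, here of leukocytes. Its signal in young rats 1 to 6 was 389, 428, 523, 597, 445 and 411. In aged rats 1 to 6 it was 423, 500, 655, 570.5, 476 and 623. Only 2 aged rats exceeded the highest young rat, young rat 4. The means were 466 ± 79.0 and 541 ± 89.9 (SD, n = 6 each), a log2 difference of 0.22 (SE 0.13).

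Of 18 tested tetraspanin relatives, 12 had a higher and 6 a lower mean in aged rats, at a median difference of 0.057 (log2) that turned to -0.013 after median centring, where 7 were higher. None passed at an adjusted p of 0.05 in limma, and 2 had an unadjusted p up to 0.05. Cd63, a tetraspanin of late endosomes and lysosomes, had a log2 difference of 0.32 (SE 0.10, limma adjusted p 0.382), Cd82 had 0.43 (SE 0.15, limma adjusted p 0.438), and Tspan4 had 0.35 (SE 0.17, limma adjusted p 0.556). Cd37, a leukocyte tetraspanin, had 0.35 with a wide error (SE 0.31), and was named after its value had been seen.

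Laptm5 encodes a lysosomal membrane protein of hematopoietic cells that promotes degradation of antigen receptors. Its brighter probe set (1383658_at) gave 258, 339, 372, 341, 257 and 347 in young rats 1 to 6. In aged rats 1 to 6 the values were 343, 508, 521, 459, 398 and 493. Of the aged rats, 5 exceeded every young rat, and aged rat 1 fell among the young. The means were 319 ± 48.9 and 454 ± 69.7 (SD, n = 6 each), a log2 difference of 0.51 (SE 0.13).

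The second Laptm5 probe set (1368006_at) also had a higher mean in aged rats, by 0.30 on the log2 scale (SE 0.14), with signals of 265 to 322 in young and 252 to 493 in aged rats. The 2 probe sets disagreed on aged rat 2, which was second among aged rats by the first (508) and lowest of all rats by the second (252). Deviations from the age means had a Pearson r of 0.33 and a Spearman rho of 0.32 between the probe sets over 12 rats. Of the widely expressed relatives, Laptm4b had signals of 1346 to 1494 in young and 1504 to 1770 in aged rats, with no overlap (log2 difference 0.18, SE 0.055, limma adjusted p 0.354), and Laptm4a had 0.059 (SE 0.080).

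Ly86 (1393280_at) encodes MD-1, the secreted partner of the receptor Cd180. Its signal in young rats 1 to 6 was 96.5, 137, 114, 212, 110 and 110.4. In aged rats 1 to 6 it was 106, 124, 116, 129.5, 125 and 221. Each age group had 5 rats at or below 137 and 1 far above, young rat 4 and aged rat 6. The means were 130 ± 42.1 and 137 ± 42.2 (SD, n = 6 each), a log2 difference of 0.084 (SE 0.21), smaller than its error. It was 0.23 without young rat 4 and -0.064 without aged rat 6.

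Of 7 tested partners of Ly86 and genes of lipopolysaccharide sensing, 6 had a higher and 1 a lower mean in aged rats, at a median difference of 0.22 (log2), or 0.088 after quantile normalization and 0.10 without young rat 1. None passed at an adjusted p of 0.05 in limma, with 1 at an unadjusted p up to 0.05. This was Tirap, an adaptor of Toll-like receptors, at 0.48 (SE 0.16, limma adjusted p 0.403). Cd14, the lipopolysaccharide co-receptor, had 0.46 (SE 0.21, limma adjusted p 0.556), and Myd88 had 0.23 (SE 0.11, limma adjusted p 0.556). Cd180 itself had 0.22 (SE 0.25), at signals of 15.2 to 47.5 that reached below the cutoff, and was named as the receptor of Ly86 after its value had been seen.

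The promoters of 4 of the 7 members were in the RefSeq table used (rat build GRCr8). They are shown because these genes share leukocyte expression, and leukocyte promoters are known for binding ETS-family factors such as PU.1. Each window runs from 250 bases before to 50 bases after the annotated start, printed from 5′ to 3′ in the direction of the gene, and capitals mark GAGGAA or AGGAAGT on either strand, 2 spellings that can overlap each other.
Cd53, chr2:197087847-197088146, minus strand: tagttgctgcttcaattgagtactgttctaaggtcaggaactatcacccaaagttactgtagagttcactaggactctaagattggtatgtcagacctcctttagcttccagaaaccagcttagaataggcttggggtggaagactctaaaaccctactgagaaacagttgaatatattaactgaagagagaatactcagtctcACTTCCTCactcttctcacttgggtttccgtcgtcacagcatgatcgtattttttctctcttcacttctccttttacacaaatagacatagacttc
Ptprc, chr13:52259697-52259996, minus strand: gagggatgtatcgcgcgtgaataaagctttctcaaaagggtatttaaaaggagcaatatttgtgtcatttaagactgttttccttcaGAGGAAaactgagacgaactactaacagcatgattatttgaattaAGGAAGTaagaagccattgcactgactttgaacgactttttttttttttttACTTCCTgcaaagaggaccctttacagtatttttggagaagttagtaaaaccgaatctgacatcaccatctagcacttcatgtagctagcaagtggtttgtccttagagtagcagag
Laptm5, chr5:148371630-148371929, plus strand: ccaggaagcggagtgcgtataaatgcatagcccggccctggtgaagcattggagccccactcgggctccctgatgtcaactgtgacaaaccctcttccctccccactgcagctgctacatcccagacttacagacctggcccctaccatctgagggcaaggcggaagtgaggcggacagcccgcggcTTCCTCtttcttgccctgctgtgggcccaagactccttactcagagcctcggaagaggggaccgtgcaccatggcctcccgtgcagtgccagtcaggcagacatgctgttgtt
Coro1a, chr1:190731054-190731353, minus strand: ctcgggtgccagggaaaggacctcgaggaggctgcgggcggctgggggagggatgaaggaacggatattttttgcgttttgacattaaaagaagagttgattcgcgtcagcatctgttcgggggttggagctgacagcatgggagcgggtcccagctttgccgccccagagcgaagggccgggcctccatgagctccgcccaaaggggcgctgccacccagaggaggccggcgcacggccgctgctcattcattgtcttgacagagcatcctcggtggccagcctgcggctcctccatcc
GAGGAA occurred in Cd53, Ptprc and Laptm5, beside 27.6% of 33469 promoters of the same length, and AGGAAGT in Cd53 and Ptprc, beside 8.41%. In Cd53 both spellings overlapped on the reverse strand, starting 46 and 44 bases before the start site. Ptprc held 2 copies of AGGAAGT, at 118 and 67 bases before it, on opposite strands. TATAAA, present in 14.2% of all windows, occurred in Laptm5 alone of these 4, starting 233 bases before the start site. The Coro1a window held none of the 3 spellings. A match describes letters only, and binding was not measured. Spi1, which encodes PU.1, is not among the genes tested, and the 8 tested leukocyte transcription factors were split, with 4 higher and 4 lower in aged rats (median log2 difference 0.021, and -0.057 after quantile normalization) and none at an unadjusted p up to 0.05. The smallest p among them belonged to Runx1, at 0.30 (SE 0.15, limma adjusted p 0.578), followed by Irf5 at -0.56 (SE 0.49) and Lyl1 at -0.64 (SE 0.60).

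**Figure D2:**
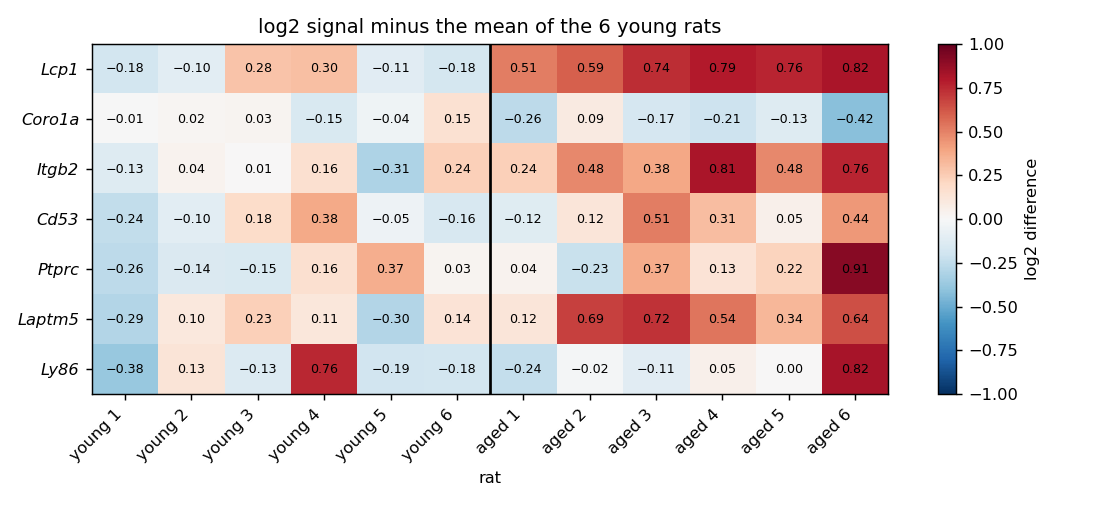
Log2 signal of each member in each rat minus the mean of the 6 young rats, with the value printed in each cell (7 genes by 12 rats). Aged rat 6 has the highest values of all rats for Lcp1 (0.82), Ptprc (0.91) and Ly86 (0.82) and the lowest for Coro1a (-0.42), and young rat 4 is the highest young rat for Lcp1, Cd53 and Ly86.

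The members did not rank the rats alike. Averaged over the 7 members, log2 signal relative to the young mean ran from -0.21 in young rat 1 to 0.24 in young rat 4, and from 0.041 in aged rat 1 to 0.57 in aged rat 6. Aged rat 1 was the lowest aged rat for 5 members, and young rat 1 the lowest young rat for 4. The averages of the 2 age groups thus overlapped. The array of aged rat 6 also had the highest median signal of the 12 (194, beside 162 to 177) and the most probe sets above the cutoff (87.1%, beside 83.3% to 85.9%), and its part in the member values was not tested. Without aged rat 6 the median member difference was 0.17.

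Likeness across rats was described by Pearson's r of the deviations from the age means over the 12 rats, whose values share arrays and their scaling. Among 11433 genes above the cutoff on all arrays, Cd53 ranked 15th for likeness to Lcp1, with r 0.84 (Spearman rho 0.80), and r was 0.77 without young rats 3 and 4, the farthest from the Lcp1 mean. Ly86 followed at 0.62, Laptm5 at 0.52, Itgb2 at 0.43 and Ptprc at 0.32, and Coro1a was at -0.41. The 5th to 95th percentile of all these genes ran from -0.53 to 0.58, so Laptm5, Itgb2, Ptprc and Coro1a lay inside this range. Single rats carried weight in these values. Without young rat 4, r was 0.39 for Ly86 and -0.25 for Coro1a, without young rat 3 it was 0.49 for Ptprc, and without young rat 6 it was 0.66 for Itgb2 and 0.64 for Laptm5, above the 95th percentile over all rats. Between other members r ran from -0.70 for Coro1a with Ptprc to 0.67 for Cd53 with Laptm5.

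Several genes outside the set had a higher r to Lcp1 than any other member. Amotl1, which encodes an angiomotin-like junction protein, had r 0.90, and Smarcd1, a chromatin remodeling subunit, had 0.88. They were followed by C8h15orf39, Mpv17l2, Mbp, Maoa, Ppp3r1, Rpl34, Rab27a and Nxt1, at 0.84 to 0.87. Mbp, the myelin basic protein of oligodendrocytes, had mean signals of 16550 (young) and 17067 (aged), an age difference of 0.046 on the log2 scale (SE 0.081, limma adjusted p 0.908). The largest age difference among the 10 was that of Rab27a, a GTPase of vesicle secretion, at 0.30 (SE 0.14, limma adjusted p 0.556).

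**Figure D3:**
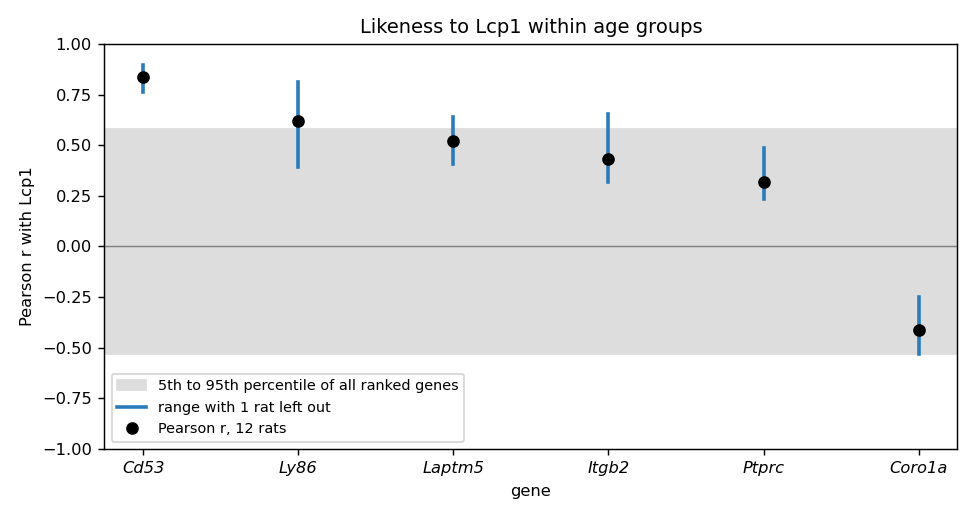
Pearson r of 6 members with Lcp1, from deviations of log2 signal from the age mean in 12 rats. Points are all rats, lines the range with each rat left out in turn, and the grey band the 5th to 95th percentile over 11433 genes. Cd53 (0.84) lies above the band over its whole range, Ly86 (0.62), Itgb2 (0.43) and Laptm5 (0.52) cross its upper edge, and Coro1a (-0.41) is the one member below 0.

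The sample codes of the submitters fall into a lower number series (3 young and 4 aged rats) and a higher one (3 young and 2 aged rats), and what the numbers stand for is not given in the sources used here. This grouping played no part in choosing the members, so the series difference and its interaction with age could be tested, while the age differences within a series come from the arrays used for the choice and are a description. The age difference of Lcp1 was 0.66 (SE 0.14) in the lower and 0.79 (SE 0.18) in the higher series. That of Itgb2 was 0.51 and 0.59, of Laptm5 0.50 and 0.51, of Cd53 0.26 and 0.19, of Ptprc 0.27 and 0.38, of Ly86 0.048 and 0.28, and of Coro1a -0.15 and -0.26. The interaction of age with series reached an adjusted p under 0.05 in limma for 0% of genes and for no member (adjusted p 0.999 to 1.00). An unadjusted p up to 0.05 was found for 431 genes (3.25%) and no member. With SEs of 0.17 to 0.41 for the interaction, differences of moderate size between the series were not detectable.

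The series itself differed for no gene at an adjusted p under 0.05 in limma (0%). At an unadjusted p up to 0.05 it differed for 1600 genes (12.1%). The 1 member among these was Ptprc, higher in the higher series by 0.43 (SE 0.13, limma adjusted p 0.311). With the series as a block, the age difference of Ptprc was 0.31 (SE 0.13), beside 0.24 without it. For Ly86 the series difference was 0.37 (SE 0.20, limma adjusted p 0.464), and its 2 highest rats, young rat 4 and aged rat 6, were both in the higher series. The other 5 members differed between the series by less than 0.10 in either direction.

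**Figure D4:**
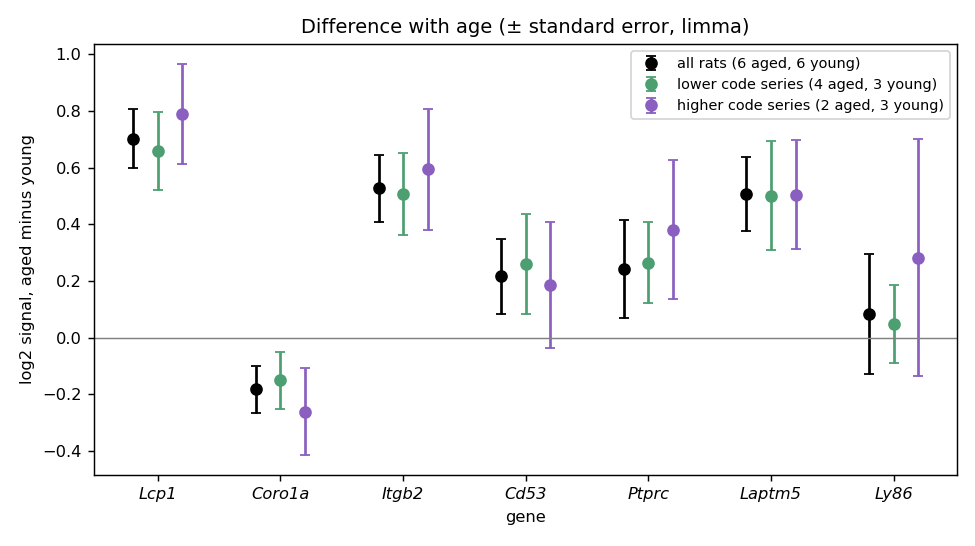
Difference in log2 signal (aged minus young) of each member with its standard error from limma, for all rats (black, 6 aged and 6 young), the lower code series (green, 4 aged and 3 young) and the higher series (purple, 2 aged and 3 young). Lcp1 lies at 0.66 to 0.79 in all 3, Coro1a below 0 in all 3, and the error of Ly86 is widest in the higher series.

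Markers of the cell types that could supply these transcripts were set beside the members. All 12 tested microglial markers were higher in aged rats under each of the 3 scalings, with a median log2 difference of 0.29, and none passed at an adjusted p of 0.05 in limma while 3 had an unadjusted p up to 0.05. Tyrobp, the adaptor of Trem2, had signals of 142 to 217 in young and 192 to 342 in aged rats (log2 difference 0.52, SE 0.14, limma adjusted p 0.294). Sall1, a transcription factor that maintains microglial identity, had 0.30 (SE 0.10, limma adjusted p 0.403), and P2ry12, the microglial purine receptor, had 0.29 (SE 0.12, limma adjusted p 0.503). The summed microglial signal was 5557 to 7246 in young and 6486 to 11954 in aged rats, highest in aged rat 6, and 4 aged rats exceeded all young rats. No defining marker was listed at 0. The part of microglial number or state in the member values was not tested.

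Neutrophil markers had the highest median difference of the lists examined, and they were dim. Of 5 tested, 4 were higher in aged rats, with a median log2 difference of 0.99. That is the value of Lcn2 alone (SE 0.90), which exceeded the cutoff on 4 of 12 arrays. The list median was 0.21 in the lower code series alone, 0.33 without aged rats 2 and 6, and 0.45 without young rat 2. The summed signal of the 6 on the array, Camp included, was 124 to 177 in young and 220 to 514 in aged rats, without overlap. Only 2 of the 5 tested, S100a9 and S100a8, had no overlap by themselves, beside 0.536% of all genes tested with all aged above all young rats. S100a9, a calcium-binding protein of neutrophils and monocytes, was at 25.0 to 71.3 in young and 83.3 to 241 in aged rats (log2 difference 1.60, SE 0.29, limma adjusted p 0.105). S100a8, its partner, was at 2.57 to 18.8 in young rats, all below the cutoff, and at 25.3 to 75.6 in aged rats (limma adjusted p 0.189). It passed the filter through the aged rats alone, so nothing is read from its lack of overlap or its p. Lcn2, at 0.998 to 32.8 in young and 3.79 to 34.7 in aged rats, overlapped. So did Csf3r (log2 difference 0.20, SE 0.26) and Mmp8 (-0.28, SE 1.15). Camp, a granule marker, lay below the cutoff on all arrays, and the part of blood neutrophils in the member values was not tested.

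Other leukocyte lists gave no common direction. Of 7 border macrophage markers 3 were higher and 4 lower (median -0.21, but -0.035 without aged rat 6 and -0.076 without young rat 6), with F13a1 at 0.50 (SE 0.17), Clec10a at -0.98 (SE 0.37) and Lyve1 at -0.39 (SE 0.26). Clec10a was dim, above the cutoff on 10 of 12 arrays, with signals of 7.51 to 38.9 in aged rats. The summed border macrophage signal was 290 to 472 in young and 213 to 415 in aged rats, and Ms4a7 lay below the cutoff on all arrays. Of 10 T and NK cell markers 8 were higher (median 0.13, but 0.0069 without aged rat 6, 0.28 without young rat 6 and -0.054 after quantile normalization, where 4 were), with sums of 251 to 374 and 323 to 546. Gzmb, a protease of cytotoxic cells, was at 2.15 to 24.3 in young and 15.8 to 48.4 in aged rats (limma adjusted p 0.388), Ccl5 had a log2 difference of 0.85 (SE 0.43) and Cd5 0.34 (SE 0.26). Gzmb and Cd5 were dim and each exceeded the cutoff on 7 of 12 arrays. The 3 tested B and plasma cell markers were higher (median 0.22, and 0.048 without aged rat 6), Ms4a1 by 1.12 (SE 0.70), Cd22 by 0.22 (SE 0.29) and Jchain by 0.19 (SE 0.42), with sums of 149.7 to 277 and 148 to 484. Ms4a1 exceeded the cutoff on 4 of 12 arrays, and Cd79b lay below it on all arrays. No marker of these 3 lists passed at an adjusted p of 0.05 in limma, and 3 had an unadjusted p up to 0.05, F13a1, Clec10a and Gzmb.

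Red blood cell markers, a measure of residual blood, were higher in aged rats for 4 of 4 genes, with a median of 0.38 and none at an unadjusted p up to 0.05. Alas2 had 0.50 (SE 0.25), Hbb 0.23 (SE 0.17) and Slc4a1 0.41 (SE 0.45), and the sums overlapped widely (5008 to 9331 in young, 6052 to 9648 in aged rats). The 4 endothelial markers were also higher, with a median of 0.22, sums of 1717 to 2051 and 1797 to 2578, and Cldn5 at 0.21 (SE 0.091, limma adjusted p 0.530), Flt1 at 0.28 (SE 0.14) and Tek at 0.14 (SE 0.10). The 5 oligodendrocyte markers had a median of 0.24, with Mag at 0.38 (SE 0.24), Cnp at 0.24 (SE 0.17) and Mog at 0.35 (SE 0.27). Astrocyte markers had a median of 0.020, which turned to -0.051 after median centring, with Gfap at 0.41 (SE 0.20), Aldh1l1 at 0.041 (SE 0.072) and Gja1 at 0.024 (SE 0.075). Neuronal markers had medians of -0.071 for the general list and -0.019 for cortical excitatory neurons, or -0.018 and 0.13 without aged rat 6. In the general list Syn1 had -0.14 (SE 0.063, limma adjusted p 0.527), Slc17a7 -0.12 (SE 0.064) and Stmn2 -0.11 (SE 0.11). Among cortical excitatory neuron markers Lamp5 had 0.099 (SE 0.11), Rorb -0.26 (SE 0.30) and Neurod6 0.11 (SE 0.25).

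**Figure D5:**
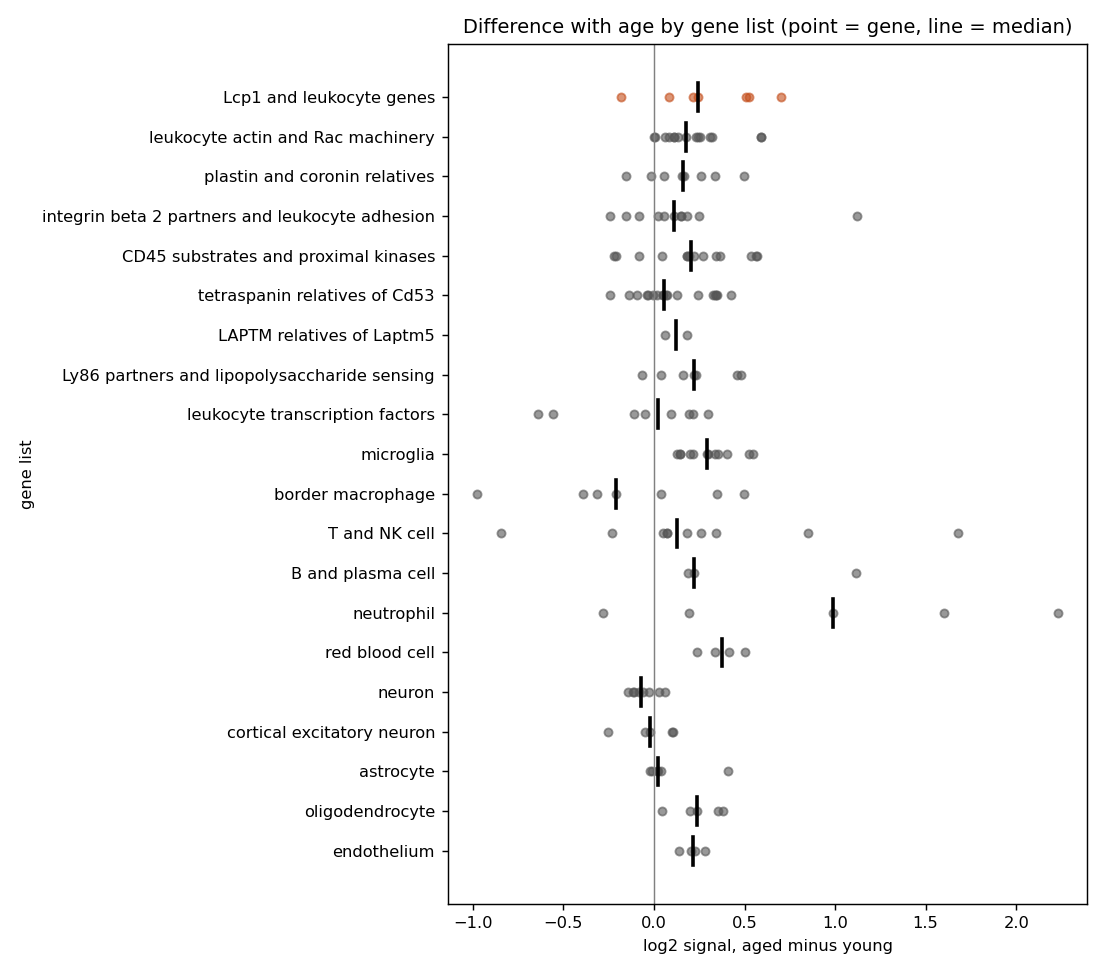
Difference in log2 signal (aged minus young) for the members (orange) and for each gene or marker list (grey). Points are genes and black lines list medians. The member median (0.24) lies close to those of the oligodendrocyte (0.24), Ly86 partner (0.22), B and plasma cell (0.22), endothelial (0.22) and CD45 (0.21) lists, between the leukocyte actin (0.17) and microglial (0.29) medians. The neutrophil median (0.99, the value of the dim gene Lcn2) is the highest. The medians of the tetraspanin, transcription factor, T and NK cell and astrocyte lists change sign under another scaling.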

How the data were processed

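Cortical RNA of 12 F344 rats was measured on 12 arrays, and groups follow the age labels. The authors deposited 1 linear signal intensity per probe set and array, with a mean of 500.1 on every array once 2% of the values had been trimmed from either end. MAS5, GCRMA and R 2.7.1 appear in the processing notes of the submitters, while the methods describe gcRMA signals as deposited and also a target intensity. The deposited values do not look like gcRMA output, which is on a log2 scale, since they are linear and centred on that target. Intensities were turned into log2 values without further normalization, although the tests had been planned for log2 gcRMA values. A log2 value of 4.3 (signal 19.7) served as cutoff. The number is that of the methods, which set it on the distribution of gcRMA values, and on the scale used here 83.3% to 87.1% of probe sets per array exceeded it.

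Symbols came from the platform annotation, updated by gene ID (20764 of 20832 probe sets with 1 symbol were found). Another 436 probe sets carry more than 1 symbol and 9831 carry none, and these entered no test of genes. The probe set with the highest mean log2 signal stood for its gene. A gene was tested if 3 or more arrays exceeded the cutoff, which left 13253 genes, and 11434 exceeded it on all 12 arrays. Summed signals of a marker list also include its genes on the array that were not tested. The test was limma's moderated test (version 3.58.1, R 4.3.3), two-sided, and p-values were adjusted by Benjamini-Hochberg over the 13253 genes. Member probe sets that do not stand for their gene were fitted over 28193 probe sets. The steps were tested on simulated data. Plots were made in matplotlib 3.10.9 (Python 3.11.15). The number of arrays limits the precision, and p-values set the difference tested against the spread between rats.

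The members and lists were chosen with earlier results of these data known. Named are all members, per list the 3 genes of lowest p, and the 10 genes with the highest r to Lcp1. Genes named beyond this rule were chosen after their values were seen. As alternatives, values were quantile normalized or median centred, the filter was dropped or made stricter, every probe set or the mean of probe sets was used, the model had an intensity trend with robust variances, array weights, the subject number or code series as a block, or was replaced by the methods' t-test or one with unequal variances, and fits were repeated within each code series and without each rat. Leaving out aged rats 2 and 6 together was chosen after seeing the data. Water maze and sleep values were not used here.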

Additional observations from a re-analysis of the deposited data

Results flagged for a closer look

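Ly86 in aged rat 6 had a signal of 221, far above the other aged rats (106 to 129.5). On the log2 scale its gap to the nearest aged rat was 0.730 of the range of the group, above Dixon's critical value of 0.625 for 6 samples. It was 1 of 18 such gaps examined over 9 probe sets in both age groups, and chance passes this limit in about 1 in 20 groups.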

How the results depend on the processing

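Against 7 genes called with age (adjusted p under 0.05), 4 were called after quantile normalization, 2 after median centring, with unequal variances or with the subject number as a replicate block, 18 with intensity trend and robust variances, 13 with array weights, 0 in either code series alone, 1 without aged rats 2 and 6, and 0 to 8 with 1 rat left out (0 without young rat 1 or aged rat 3, 1 without aged rat 6, 2 without aged rat 2, 4 without young rat 2 or aged rat 5). The count of members called, 1 by the choice of Lcp1, became 0 after quantile normalization, median centring, no filter, every probe set, the mean of probe sets, the methods' t-test, unequal variances, the replicate block, the code series as a block, either series alone and without aged rats 2 and 6. With 1 rat left out the count was 0 to 1, and the call held in 2 of 12 omissions, those of young rat 3 and young rat 4. Under the replicate block the Lcp1 difference was 0.70. The labels do not say that a number pairs rats, and correlations of same-numbered rats ran from -0.040 to 0.16, with 4 of 6 over 0.1. As a hint from the data, 4 of 6 young rats were most like the aged rat of their number, and 5 of 6 same-numbered pairs lay in 1 code series. The interaction, called for 0 genes, was called for 1 with no filter and for 0 to 1 with 1 rat left out (1 without young rat 5 or aged rat 6). The median member difference stayed between 0.17 and 0.38. The cause of these shifts was not tested.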
